A study of Mus musculus with 34 samples.

Results

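The C-type lectin genes whose symbols begin with Clec and a number were followed across the acetylation and factor binding data of the series. Members were taken from the deposited tag tables by gene symbol, leaving out Clec4f and Clec9a, and the tags of all regions that name a member as nearest gene within 100 kb of its start site were summed per gene. This gave 27 Clec genes in all, of which 26 stood in the table of blood and liver cells (92 of 84647 regions) and 27 in the table of bone marrow-derived macrophages (112 of 95038 regions). Clec3b stood only in the second table.

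C-type lectins share a carbohydrate recognition fold, and many of them are receptors by which myeloid cells sense microbial sugars, damaged cells or other host cells. Activating receptors carry a short hemITAM motif of their own or pair with the adaptors FcR gamma (Fcer1g) or DAP12 (Tyrobp), and both routes recruit the kinase Syk, with Card9, Bcl10 and Malt1 downstream. Inhibitory receptors carry an ITIM motif that recruits the phosphatases SHP-1 (Ptpn6) and SHP-2. In the liver, Kupffer cells, the resident macrophages of the sinusoids, use lectin receptors to clear particles and glycoproteins from the blood.

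H3K27ac, the acetylated form of a lysine in the histone H3 tail that active regulatory DNA carries, was profiled by chromatin immunoprecipitation and sequencing in 5 groups of 2 libraries each. Untreated Ly6C-high monocytes came from the blood of C57BL/6J mice. Repopulating liver macrophages (RLM) came from Clec4f-cre/Rosa26iDTR mice 24 h after diphtheria toxin, a design in which Cre under Clec4f control gives Kupffer cells the toxin receptor. The untreated Kupffer cells are labelled C57BL/6J, whereas the series text places them in the Clec4f-Cre/DTR mice. Bone marrow-derived macrophages (BMDM) of C57BL/6J mice were cultured for 4 days and then either left untreated or exposed for 24 h to DLL4, a ligand of Notch receptors. The nuclear receptor LXR, the TGF-beta and BMP effector SMAD4 and the Notch effector RBPJ were mapped in Kupffer cells of untreated Clec4f-cre mice (in isolated nuclei for SMAD4 and RBPJ) and in C57BL/6J BMDM, again with 2 libraries each. The LXR experiment used BMDM of 7 days with the agonist GW3965 for 18 h, and the SMAD4 and RBPJ experiments used untreated BMDM of 4 days. Ages are not in the labels, nor is it stated that paired libraries are from different mice or cultures. The p-values therefore rest on library-to-library spread that may be technical only.

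The libraries held 7.37 to 19.5 M tags in regions in the blood and liver table and 20.2 to 27.2 M in the BMDM table. All 7 Kupffer cell markers tested were higher in Kupffer cells than in monocytes, and their summed level was 73.9 to 87.3 tags per M (CPM) in monocytes, 222 to 226 in RLM and 1496 to 1673 in Kupffer cells. Of 6 monocyte markers, 3 were lower in Kupffer cells than in monocytes and 1 was higher (Ccr2), with summed levels of 588 to 595 CPM in monocytes, 559 to 569 in RLM and 245 to 253 in Kupffer cells. The summed level of 5 macrophage markers was 311 to 356 CPM in monocytes, 500 to 521 in RLM and 1162 to 1332 in Kupffer cells. In the BMDM table, scaled apart, it was 1654 to 1671 CPM untreated and 2010 to 2063 with DLL4. All tested markers of the other cell types had tags in every library of the blood and liver table.

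The Clec genes lie mostly in a few tight clusters. Of the 27, 22 are on mouse chromosome 6 (build mm10). A cluster of 9 runs from Clec4a1 to Clec4e (chr6:122921848-123289871), and a cluster of 11 runs from Clec2h to Clec7a (chr6:128662385-129472785). Clec5a and Clec2l lie elsewhere on chromosome 6, and Clec11a, Clec4g, Clec3b, Clec10a and Clec16a lie on chromosomes 7, 8, 9, 11 and 16. Regions over 3 kb from a start site made up 52.2% of the Clec regions in the blood and liver table, against 66.6% of all regions. Near-identical copies within the Clec2, Clec4a and Clec4b families can share reads, and how such reads were treated is not given in the sources used here, so the split between those neighbours is uncertain.

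Promoter stretches of 4 members are shown because factor peaks lay over them. Clec1b, Clec12a and Clec4e also differed between the cells compared below. The summed tags of Clec2d differed by less than 2-fold in every comparison, although its edgeR adjusted p with DLL4 was 2.33e-07. Each is the 250 bases before the start site on the gene's own strand, taken from RefSeq on GRCm38.p6 (the mm10 assembly). Of the 27 members, 21 had a promoter in that table, 24 promoters in all. Capitals mark matches on either strand to the nuclear receptor half-site AGGTCA, the RBPJ core TGGGAA, the SMAD-type motif CAGACA, the core GAGGAA of PU.1-type ETS factors, the AP-1 motif TGANTCA or the C/EBP-type motif TTGCNNAA, which in Clec12a is its own reverse complement.
Clec1b (chr6:129397047-129397296, plus strand): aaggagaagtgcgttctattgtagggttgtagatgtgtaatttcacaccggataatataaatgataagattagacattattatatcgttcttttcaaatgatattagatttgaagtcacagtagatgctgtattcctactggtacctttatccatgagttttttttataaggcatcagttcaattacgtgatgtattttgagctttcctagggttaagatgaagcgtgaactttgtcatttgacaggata
Clec12a (chr6:129349994-129350243, plus strand): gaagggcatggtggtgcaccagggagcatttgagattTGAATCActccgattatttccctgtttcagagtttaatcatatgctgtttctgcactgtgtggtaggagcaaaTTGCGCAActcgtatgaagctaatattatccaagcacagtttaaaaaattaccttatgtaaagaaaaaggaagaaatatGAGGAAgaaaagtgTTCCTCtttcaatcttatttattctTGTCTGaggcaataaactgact
Clec2d (chr6:129180365-129180614, plus strand): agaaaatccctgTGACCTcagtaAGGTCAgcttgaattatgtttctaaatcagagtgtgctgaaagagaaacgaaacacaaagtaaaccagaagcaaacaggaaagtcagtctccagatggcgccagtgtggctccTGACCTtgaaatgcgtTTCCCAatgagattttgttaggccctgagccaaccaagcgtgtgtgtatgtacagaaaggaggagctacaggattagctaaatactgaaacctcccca
Clec4e (chr6:123289872-123290121, minus strand): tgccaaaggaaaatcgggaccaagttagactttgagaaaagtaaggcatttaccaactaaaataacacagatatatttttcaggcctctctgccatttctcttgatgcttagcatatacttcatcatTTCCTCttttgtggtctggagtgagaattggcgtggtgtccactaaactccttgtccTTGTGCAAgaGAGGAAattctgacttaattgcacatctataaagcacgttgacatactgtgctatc

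The Clec1b stretch held none of these letters. Clec2d held 3 AGGTCA half-sites and 1 TGGGAA match. Clec12a held 2 GAGGAA matches that face each other and 1 match each to the SMAD-type, AP-1 and C/EBP-type motifs, and Clec4e held 2 GAGGAA matches, 1 of them beside a TTGCNNAA match. The PU.1-type core GAGGAA stood in 13 of the 24 member promoters and in 23.3% of all 32851 promoters of the same length. AGGTCA stood in 3 of the 24 (14.0% of all), TGGGAA in 3 (21.6%), CAGACA in 3 (17.1%), TGANTCA in 4 (6.75%) and TTGCNNAA in 4 (9.56%). A match describes the letters only, not a bound site.

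Between RLM and monocytes, most Clec genes differed by less than 2-fold, some of them with an edgeR adjusted p under 0.05. In RLM, 3 of 26 members were called higher (Clec1b, Clec2i and Clec4b1), against 6.20% of all 16749 genes tested, and 1 was called lower (Clec1a), against 5.80%. A gene or region was called at an adjusted p under 0.05 and a fold of at least 2. The median log2 difference of the 26 members was 0.12, beside 0.07 over all genes. Kupffer cells had 7 of 26 members higher than monocytes (18.4% of all genes) and 6 lower (14.4%). Against RLM they had 8 higher (14.6%) and 3 lower (12.8%), so that the share of lower members was near that of all genes. When library totals replaced the TMM scaling, which moved the median log2 difference of all genes from -0.07 to -0.29, this last split was 6 higher and 5 lower, 54.5% higher against 72.7%. The 3 comparisons share libraries, so their values are set side by side and not counted as separate evidence.

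**Figure D1:**
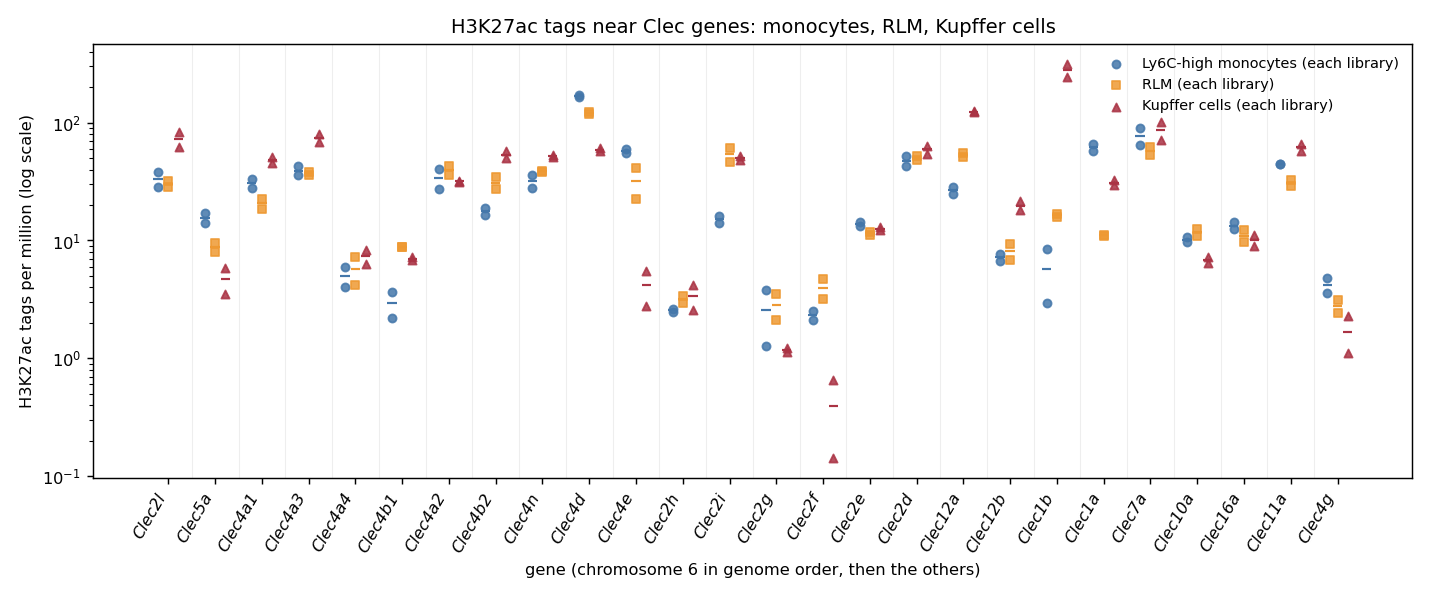
H3K27ac tags per M (log scale) summed over the regions of each Clec gene in monocytes (blue circles), RLM (orange squares) and Kupffer cells (red triangles). Points are libraries, 2 per group, and short lines are means; Clec1b rises from 2.96 and 8.44 in monocytes to 245 and 316 in Kupffer cells, and Clec4e falls from 55.4 and 59.9 to 2.79 and 5.52.

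Among the activating receptors, Clec1b showed the largest difference of any member in these cells. Clec1b encodes CLEC-2, the hemITAM receptor for podoplanin that is known from platelets and Kupffer cells. Its level was 8.44 and 2.96 CPM in the 2 monocyte libraries, 16.7 and 15.9 in RLM and 245 and 316 in Kupffer cells. The 3 groups did not overlap. The log2 difference was 1.52 ± 0.33 (SE; edgeR adjusted p = 0.0022) from monocytes to RLM and 4.11 ± 0.29 (adjusted p = 1.39e-08) from RLM to Kupffer cells, a 17.2-fold step. From monocytes to Kupffer cells it was 5.62 ± 0.32 (adjusted p = 4.80e-10). Without the second monocyte library, the first step was 0.91 and was no longer called. In bulk libraries, fewer cells of a type and less acetylation per cell cannot be told apart.

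The Clec1b regions are described singly, and no test compared them with each other. The 2 overlapping regions at the promoter, centred 16 and 279 bp after the start site, held 0.33 to 1.98 CPM in monocytes and 1.73 to 3.15 in RLM. The log2 differences between these groups were 0.996 ± 0.45 and 1.05 ± 0.44, and neither was called (edgeR adjusted p = 0.107 and 0.071). In Kupffer cells they held 62.2 to 101 CPM. The stronger of them (chr6:129396576-129398576) differed by 5.10 ± 0.32 on the log2 scale between Kupffer cells and RLM (adjusted p = 7.92e-20). A region inside the gene, 2778 bp after the start (chr6:129399075-129401075), held 1.57 and 0.74 CPM in monocytes and 6.31 and 8.13 in RLM. That region was called higher in RLM (2.64 ± 0.35, adjusted p = 6.79e-09), and it reached 60.3 and 87.2 CPM in Kupffer cells.

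Platelet and megakaryocyte markers were read beside Clec1b, since platelets carry the same receptor. Of 7 such markers, 3 could be tested, and their summed level was 11.7 to 14.2 CPM in monocytes, 39.5 to 41.8 in RLM and 38.4 to 49.5 in Kupffer cells. Pf4 was called higher in RLM and in Kupffer cells than in monocytes, Gp9 was called lower in Kupffer cells than in monocytes, and the rest of the list, Gp1bb, Ppbp and Gp6 among them, could not be tested. The part of platelets in the Clec1b values was not tested.

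**Figure D2:**
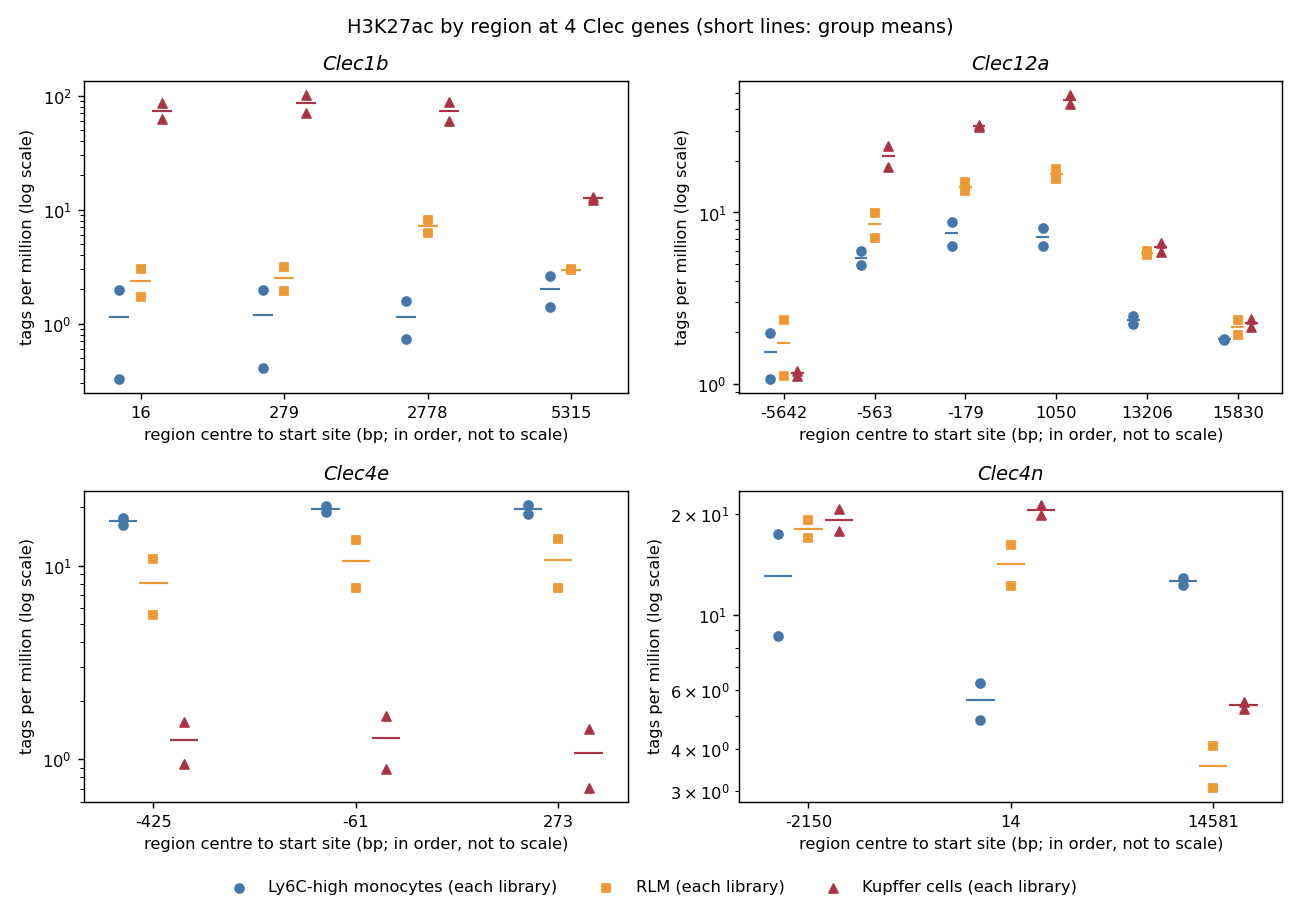
H3K27ac tags per M (log scale) in each region of Clec1b, Clec12a, Clec4e and Clec4n, ordered by the distance of the region's centre from the start site (bp). Points are libraries and short lines are group means; within Clec1b, the region 2778 bp after the start stands at 6.31 and 8.13 in RLM, and at Clec4n the promoter and the intron run in opposite directions.

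Clec4e ran the other way. It encodes Mincle, an FcR gamma-coupled receptor for mycobacterial cord factor and for a protein released by dying cells. Its level was 55.4 and 59.9 CPM in monocytes, 22.4 and 41.2 in RLM, and 5.52 and 2.79 in Kupffer cells. Kupffer cells lay below both other groups in each library. Clec4e fell by 3.90 ± 0.30 on the log2 scale between monocytes and Kupffer cells (14.9-fold, adjusted p = 9.87e-11) and by 3.05 ± 0.31 between RLM and Kupffer cells (adjusted p = 1.52e-08). The difference between RLM and monocytes was -0.85 ± 0.25 (adjusted p = 0.0100), short of 2-fold, and the 2 RLM libraries were as far from each other. All 3 Clec4e regions overlap each other at the promoter, and the one centred 273 bp after the start (chr6:123288598-123290598) held 18.5 and 20.6 CPM in monocytes and 1.43 and 0.70 in Kupffer cells (-4.31 ± 0.38, adjusted p = 2.64e-16).

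Clec4d, the next gene, encodes MCL, which forms a complex with Mincle. It stood at 167 and 173 CPM in monocytes, 119 and 123 in RLM, and 57.2 and 61.1 in Kupffer cells. The groups were separate and in that order. The fall was 1.52 ± 0.16 on the log2 scale from monocytes to Kupffer cells (adjusted p = 6.22e-10). From RLM to Kupffer cells it was -1.03 ± 0.16 (adjusted p = 1.90e-06), a call that sits at the 2-fold limit and was lost in 8 of 14 alternatives, where the difference was -0.83 at its smallest. Its largest regional difference lay inside the gene. The region over its exon 4982 bp after the start (chr6:123266089-123268089) fell from 48.9 and 54.7 CPM in monocytes to 8.47 and 8.33 in Kupffer cells (-2.62 ± 0.24, adjusted p = 1.39e-15), while a region at a distance of -9120 bp from the start held 13.8 and 15.3 CPM in monocytes and 13.8 and 17.0 in Kupffer cells.

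Clec5a encodes MDL-1, a DAP12-coupled receptor of monocytes and neutrophils. It held 17.2 and 14.0 CPM in monocytes, 7.93 and 9.55 in RLM, and 3.54 and 5.85 in Kupffer cells. Kupffer cells lay below monocytes in each library (log2 difference -1.68 ± 0.30, adjusted p = 1.31e-05). The promoter region (chr6:40584842-40586842) held 5.12 and 2.89 CPM in monocytes, 1.58 and 1.12 in RLM, and 1.31 and 0.70 in Kupffer cells, and was called lower in both liver groups than in monocytes. The summed level of the 7 neutrophil markers tested was 154 to 178 CPM in monocytes, 98.0 to 115 in RLM and 212 to 272 in Kupffer cells, although 4 of the 7 were called lower in Kupffer cells than in monocytes and 0 higher. The part of neutrophils in the Clec4e, Clec4d and Clec5a values was not tested.

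Clec4n, which encodes Dectin-2, the FcR gamma-coupled receptor for fungal mannans, was not called as a gene in any comparison, but its regions moved in opposite directions. It was singled out after its values were seen. The promoter region (chr6:123228857-123230857) held 6.28 and 4.87 CPM in monocytes, 12.2 and 16.2 in RLM, and 21.3 and 19.9 in Kupffer cells, with both liver groups called higher than monocytes (log2 differences 1.35 and 1.88). A region in an intron, 14581 bp after the start (chr6:123243424-123245424), held 12.3 and 12.9 CPM in monocytes, 4.07 and 3.05 in RLM, and 5.25 and 5.51 in Kupffer cells, with both liver groups called lower (-1.83 and -1.22). The sum per gene, with 28.1 and 36.1 CPM in monocytes and 52.6 and 51.1 in Kupffer cells, shows only the total.

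Clec4b2 and Clec4b1, neighbours in the first cluster, rose. Clec4b2 encodes a receptor of the DCAR type. Its level was 18.8 and 16.5 CPM in monocytes, 34.3 and 27.6 in RLM, and 49.7 and 57.0 in Kupffer cells, without overlap. The log2 difference between Kupffer cells and monocytes was 1.60 ± 0.20 (adjusted p = 2.84e-08), and the steps from monocytes to RLM (0.80) and from RLM to Kupffer cells (0.79) were not called. Clec4b1, with a single region at its promoter (chr6:123048950-123050950), held 2.22 and 3.63 CPM in monocytes, 8.77 and 8.78 in RLM, and 7.22 and 6.82 in Kupffer cells. It was called higher than monocytes in RLM (1.58 ± 0.36, adjusted p = 0.00080) and in Kupffer cells (1.25 ± 0.36, adjusted p = 0.0034), the latter not with library totals (0.998) or without the first monocyte library (0.94).

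Clec7a, which encodes the beta-glucan receptor Dectin-1, was not called. It stood at 64.9 and 89.9 CPM in monocytes, 53.4 and 62.6 in RLM, and 71.6 and 101 in Kupffer cells, and monocytes and Kupffer cells overlapped.

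Of the inhibitory receptors, Clec12a and Clec12b rose. Clec12a encodes MICL, an ITIM receptor that binds uric acid crystals and dampens myeloid activation. It held 24.7 and 28.7 CPM in monocytes, 54.9 and 51.2 in RLM, and 122 and 126 in Kupffer cells. The groups formed separate steps. RLM exceeded monocytes by 0.99 ± 0.18 (log2, adjusted p = 4.23e-05), just short of the 2-fold limit, and Kupffer cells exceeded RLM by 1.23 ± 0.17 (adjusted p = 3.76e-07) and monocytes by 2.22 ± 0.18 (adjusted p = 1.34e-12). With non-overlapping regions, the step from RLM was 0.90 and was not called. The region 1050 bp after its start (chr6:129350294-129352294) rose from 6.36 and 8.09 CPM in monocytes through 15.6 and 17.9 in RLM to 42.7 and 48.3 in Kupffer cells.

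Clec12b, an ITIM receptor next to Clec12a, held 7.67 and 6.76 CPM in monocytes, 9.34 and 6.81 in RLM, and 21.5 and 18.1 in Kupffer cells. Monocytes and RLM overlapped, and Kupffer cells lay above both. The log2 difference was 1.29 ± 0.27 between Kupffer cells and RLM (adjusted p = 0.00020) and 1.45 ± 0.27 between Kupffer cells and monocytes (adjusted p = 2.44e-05). A region at a distance of -2467 bp from its start (chr6:129387341-129389341) went from 1.24 and 0.33 CPM in monocytes through 2.63 and 2.84 in RLM to 7.63 and 7.33 in Kupffer cells. The annotated span of Clec12b also contains Clec1b, so regions there cannot be given to 1 gene with certainty.

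The DCIR genes were less uniform. Clec4a1 held 28.1 and 33.4 CPM in monocytes, 22.6 and 18.7 in RLM, and 45.7 and 50.8 in Kupffer cells, and its rise between RLM and Kupffer cells was called (1.23 ± 0.20, adjusted p = 5.76e-06). Its region at the end of the gene (chr6:122934053-122936053) was called lower in RLM than in monocytes (-1.07 ± 0.30) and higher in Kupffer cells than in RLM (1.84 ± 0.29). Clec4a3 was called higher in Kupffer cells than in RLM at the 2-fold limit (1.01 ± 0.18), but not with library totals (0.78), without the first RLM library (0.98) or without the second Kupffer cell library (0.89). The sums of Clec4a2 and Clec4a4, which encode the ITIM receptors DCIR and DCIR2, were not called in any comparison. A Clec4a2 region (chr6:123094325-123096325) was called lower in Kupffer cells than in monocytes (-1.05, edgeR adjusted p = 0.0083).

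Among the members, the largest gene difference between RLM and monocytes was that of Clec1a, which was lower in RLM. It encodes MelLec, a receptor for fungal melanin that endothelial and myeloid cells carry. Its level was 57.9 and 65.9 CPM in monocytes, 11.2 and 10.9 in RLM, and 29.3 and 32.3 in Kupffer cells. RLM lay below both other groups. The log2 difference was -2.49 ± 0.21 between RLM and monocytes (5.61-fold, adjusted p = 5.15e-11) and 1.49 ± 0.21 between Kupffer cells and RLM (adjusted p = 4.50e-07). Both calls held in each of 14 alternatives. Kupffer cells stood at -1.003 ± 0.19 against monocytes, at the 2-fold limit, and this call was lost in 8 of 14 alternatives (-0.69 with non-overlapping regions, -0.90 without the second monocyte library). Both Clec1a regions are in introns, and the one 17568 bp after the start (chr6:129433432-129435432) went from 30.3 and 30.6 CPM in monocytes to 4.47 and 5.08 in RLM. Clec1b, which starts in the same cluster, rose between the same groups.

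Clec4g encodes LSECtin, a receptor of sinusoidal endothelium. It was low, with 4.77 and 3.55 CPM in monocytes, 3.11 and 2.42 in RLM, and 2.26 and 1.10 in Kupffer cells. Kupffer cells were called lower than monocytes (-1.39 ± 0.49, adjusted p = 0.0169), a call that was lost without the first monocyte library (-1.17) and without the second Kupffer cell library (-0.91). The 9 liver endothelium markers tested, read beside Clec4g and Clec1a, had a summed level of 180 to 201 CPM in monocytes, 155 to 165 in RLM and 269 to 281 in Kupffer cells, and Ehd3 could not be tested. Of the 9, 1 was called higher and 1 lower in RLM than in monocytes, 2 higher and 4 lower in Kupffer cells than in RLM, and 3 higher and 2 lower in Kupffer cells than in monocytes. The part of endothelial cells in these values was not tested.

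The Clec2 family encodes ligands of the NKR-P1 receptors of natural killer cells. Clec2i, which encodes Clr-g, held 16.1 and 14.1 CPM in monocytes, 61.3 and 46.2 in RLM, and 48.4 and 52.2 in Kupffer cells. RLM and Kupffer cells overlapped, and both lay above monocytes, by 1.83 ± 0.20 (log2, adjusted p = 1.44e-08) and 1.74 ± 0.20 (adjusted p = 5.12e-09). Its region 1372 bp after the start (chr6:128887959-128889959), which also lies in BC035044, went from 9.09 and 7.27 CPM in monocytes to 38.4 and 28.1 in RLM. Clec2f, with a single region in an intron (chr6:129013598-129015598), held 2.13 and 2.54 CPM in monocytes, 4.67 and 3.18 in RLM, and 0.14 and 0.65 in Kupffer cells, where 11 tags were counted in the 2 libraries together. It was called lower in Kupffer cells than in RLM (-3.04 ± 0.64, adjusted p = 0.00018) and than in monocytes (-2.30 ± 0.64, adjusted p = 0.0028). At this depth the size is loose: over the alternatives it ran from -4.65 to -2.50 against RLM and from -3.96 to -1.80 against monocytes, the extremes without the second and without the first Kupffer cell library. Clec2d encodes Clr-b, the ligand that healthy cells show to natural killer cells. Its sum was not called in these cells, with 42.4 and 52.3 CPM in monocytes, 48.4 and 52.5 in RLM, and 54.6 and 63.9 in Kupffer cells. A region at a distance of -8766 bp from its start was called lower in Kupffer cells than in RLM (-1.28) and than in monocytes (-1.65). The sums of Clec2e, Clec2g and Clec2h were not called in the blood and liver table. Single regions were: the only Clec2g region was lower in Kupffer cells than in RLM (-1.32, adjusted p = 0.0443), and Clec2e had 1 region higher (1.14) and 1 lower (-1.56) in that comparison.

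Clec2l and Clec11a complete the called members. Clec2l, described from brain, held 28.3 and 37.9 CPM in monocytes, 28.5 and 32.3 in RLM, and 61.7 and 83.8 in Kupffer cells, and was called higher in Kupffer cells than in RLM (1.26 ± 0.20, adjusted p = 2.87e-06) and than in monocytes (1.14 ± 0.19, adjusted p = 6.88e-06). Of its 12 regions, 9 lie inside the neighbouring gene Hipk2, among them the one with the largest difference (chr6:38711373-38713373), which held 2.73 and 4.71 CPM in monocytes and 19.1 and 30.1 in Kupffer cells. With only regions within 20 kb, Clec2l reversed, to -1.74 against RLM and -1.65 against monocytes. With non-overlapping regions, neither Clec2l difference was called (0.80 and 0.74). The call against monocytes was also lost with library totals (0.88), without the first monocyte library (0.95) and without the second Kupffer cell library (0.86). Clec11a, which encodes a secreted growth factor, held 44.1 and 44.3 CPM in monocytes, 28.7 and 32.5 in RLM, and 57.6 and 66.3 in Kupffer cells, and the difference between Kupffer cells and RLM was called (1.02 ± 0.18, adjusted p = 2.52e-05), though not with library totals (0.79), without the first RLM library (0.94) or without the second Kupffer cell library (0.91). The sums of Clec10a, the galactose-binding receptor MGL1, and Clec16a, a regulator of autophagy, were not called. Their levels ranged from 6.43 to 14.3 CPM over the 6 libraries. A Clec10a region (chr11:70184379-70186379) was called lower in Kupffer cells than in RLM (-1.58, edgeR adjusted p = 0.0041).

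**Figure D3:**
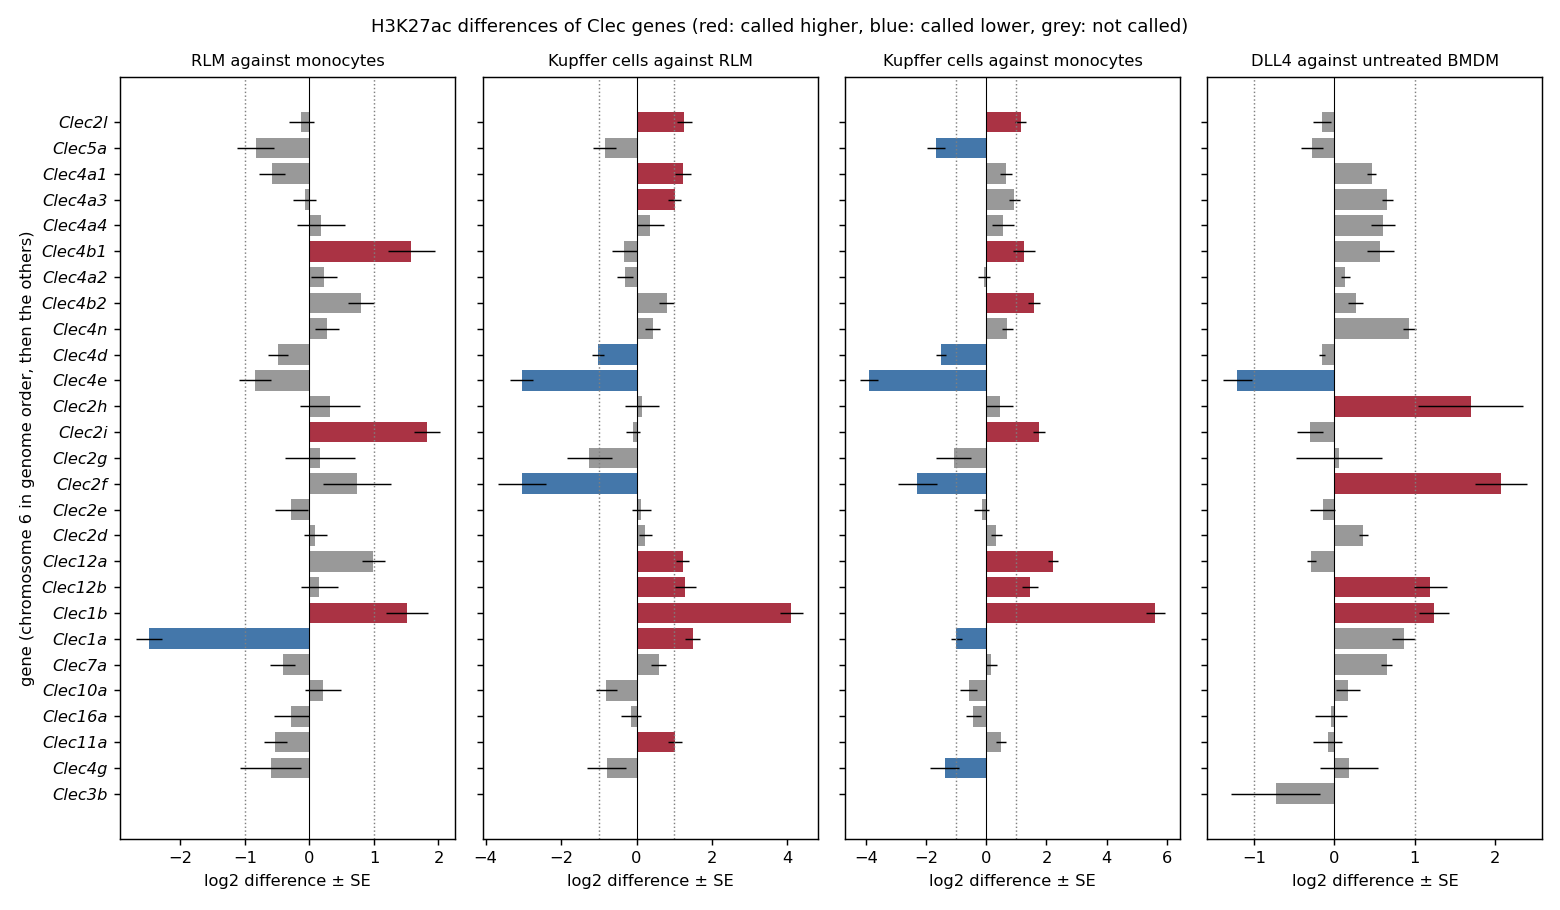
Log2 difference of H3K27ac tags per gene with its SE (2 libraries per group) in 4 comparisons, 1 bar per Clec gene in genome order. Red bars were called higher, blue bars lower and grey bars were not called; dotted lines mark 2-fold, the x axes differ between panels, and Clec1b, at 5.62 between Kupffer cells and monocytes, is the longest bar.

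Counted by region, the shares of members were close to those of all regions. Between RLM and monocytes, 9 of 90 tested Clec regions were higher (8.57% of all 80982 regions) and 9 were lower (9.14%). From RLM to Kupffer cells, 20 were higher (22.3%) and 12 were lower (13.9%). With library totals in place of TMM, this split was 18 and 17, 51.4% higher against 62.5%. From monocytes to Kupffer cells, 18 were higher (24.9%) and 19 were lower (17.7%). The 18 higher regions belonged to 9 genes and the 19 lower regions to 11, with Clec2l and Clec4n among both.

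In cultured macrophages, DLL4 went with differences at 5 Clec genes. Of 27 members tested, 4 were called higher with DLL4 (Clec12b, Clec1b, Clec2f and Clec2h), against 2.60% of all 16421 genes, and 1 was called lower (Clec4e), against 1.28%. Both are larger shares than those of all genes, the second from a single gene. Of the 4 higher genes, Clec2h lost its call in 8 of 11 alternatives. Among single Clec regions, 7 of 102 were called higher (4.89% of all regions) and 2 lower (2.64%). The median log2 difference of the members was 0.18, beside -0.01 over all genes. These libraries were normalized apart from those of blood and liver, so levels are compared only within the BMDM table. The summed level of the 7 Kupffer cell markers was 623 to 633 CPM untreated and 1208 to 1252 with DLL4, with 1 called higher (Slc40a1). That of the 7 liver endothelium markers tested was 178 to 185 CPM untreated and 283 to 284 with DLL4, with 1 called higher (Pecam1). The part of these cell types in the values was not tested.

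**Figure D4:**
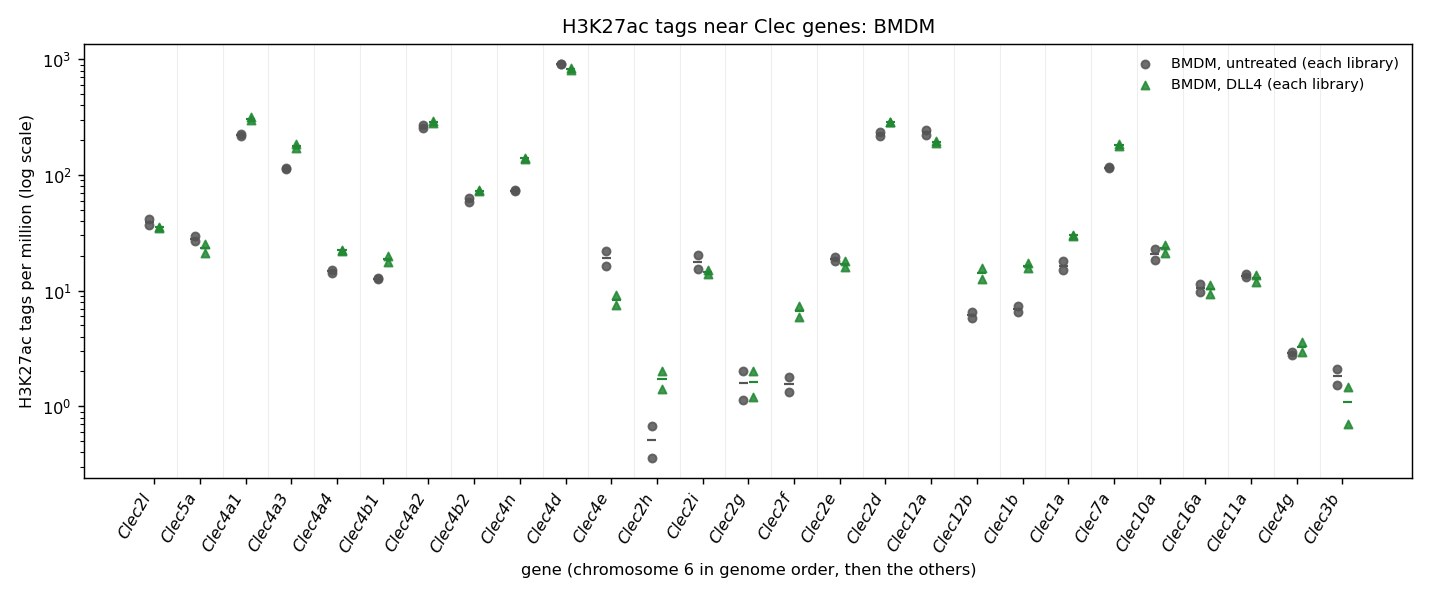
H3K27ac tags per M (log scale) summed per Clec gene in untreated BMDM (grey circles) and BMDM with DLL4 (green triangles). Points are libraries, 2 per group, and short lines are means; Clec1b goes from 6.59 and 7.37 to 15.8 and 17.2, and Clec4e from 16.3 and 22.2 to 7.59 and 9.10.

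Of the activating receptors, Clec1b held 6.59 and 7.37 CPM without DLL4 and 15.8 and 17.2 with it. The groups were separate, with a log2 difference of 1.23 ± 0.19 (2.35-fold, adjusted p = 1.77e-07). Its 2 BMDM regions lie inside the gene, the stronger 2800 bp after the start (chr6:129399097-129401097, 3.79 and 3.76 CPM without and 9.02 and 9.46 with DLL4), and the BMDM table lists none at the Clec1b promoter. Clec4e held 16.3 and 22.2 CPM untreated and 7.59 and 9.10 with DLL4, a log2 difference of -1.21 ± 0.18 (adjusted p = 1.39e-07). Its promoter region (chr6:123288944-123290944) went from 14.0 and 16.5 to 5.63 and 6.51 CPM. Without the second untreated library, the gene's difference was -0.97 and was not called. The 5 platelet markers tested, read beside Clec1b, summed to 88.3 and 106 CPM untreated and 101 and 120 with DLL4, with Gp6 called higher, and their part in the Clec1b values was not tested. Clec4d, at 916 and 912 CPM untreated and 806 and 833 with DLL4, differed by -0.16 ± 0.04.

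Several receptors had adjusted p-values under 0.05 but stayed under 2-fold, and so were not called. Clec4n went from 74.5 and 72.0 to 138 and 141 CPM (0.93 ± 0.08, adjusted p = 8.28e-16), and its promoter region (chr6:123228855-123230855) was called higher, from 14.2 and 12.9 to 46.0 and 44.3 CPM (log2 difference 1.74). Clec7a went from 114 and 117 to 177 and 185 CPM (0.65 ± 0.07, adjusted p = 2.74e-12). Clec1a went from 14.95 and 18.0 to 29.6 and 30.4 CPM (0.86 ± 0.14, adjusted p = 1.28e-06). Clec4a3 and Clec4a1 differed by 0.65 ± 0.07 and 0.47 ± 0.05. The untreated and DLL4 libraries did not overlap for any of these 5 genes. Because the genes were chosen by adjusted p, this separation adds no further support.

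Clec12b, the ITIM receptor, held 6.59 and 5.83 CPM untreated and 12.6 and 15.8 with DLL4 (1.19 ± 0.20, edgeR adjusted p = 1.79e-06). Its called region with the largest difference (chr6:129368898-129370898) held 3.65 and 3.11 CPM untreated and 8.41 and 10.5 with DLL4. That region lies between the annotated spans of Clec12a and Clec12b, so it cannot be given to 1 gene with certainty. Clec12a stood at 223 and 247 CPM untreated and 187 and 198 with DLL4 (-0.29 ± 0.06). Of the Clec2 ligands, Clec2f held 1.32 and 1.81 CPM untreated and 5.96 and 7.33 with DLL4 (2.07 ± 0.33, adjusted p = 4.70e-07). Clec2h held 0.35 and 0.68 CPM (7 and 18 tags) untreated and 2.02 and 1.42 with DLL4 (1.70 ± 0.65, adjusted p = 0.0456), and this call was lost in 8 of 11 alternatives. Clec2i, called higher in both liver groups, held 15.3 and 20.2 CPM untreated and 13.9 and 14.97 with DLL4 and was not called. Clec2d held 216 and 233 CPM untreated and 289 and 288 with DLL4 (0.36 ± 0.06, edgeR adjusted p = 2.33e-07), without overlap but under 2-fold. Clec3b, which encodes tetranectin, held 0.71 to 2.11 CPM in the BMDM libraries and was not called. By region, 7 of 102 tested were higher (4.89% of all 82089 regions) and 2 were lower (2.64%).

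Genes of the signalling routes below these receptors were read from a list of 40, all of which were tested. In Kupffer cells against monocytes, 15 were called higher (18.4% of all genes) and 2 lower (14.4%), with a median log2 difference of 0.70 beside -0.08 over all genes. The largest were Egr3, a transcription factor induced by antigen-receptor type signals, at 69.1 and 82.1 CPM in monocytes and 407 and 419 in Kupffer cells (2.45 ± 0.16), the adaptor Fcer1g, at 39.4 and 41.7 and then 154 and 187 CPM (2.08 ± 0.17), and the phosphatase Ptpn6, at 47.0 and 46.2 and then 176 and 213 CPM (2.06 ± 0.17). Card9, the adaptor below Syk, fell, from 63.8 and 51.5 CPM in monocytes through 28.2 and 24.6 in RLM to 14.6 and 12.8 in Kupffer cells (-2.08 ± 0.21). Between RLM and monocytes 2 genes were higher (Pycard and Egr2; 6.20% of all genes) and 1 was lower (Card9; 5.80%). In Kupffer cells against RLM 10 were higher (14.6%) and 1 was lower (12.8%), among the former the kinase Pik3cd (1.66 ± 0.15). With DLL4, edgeR called 0 of 40 (2.60% of all genes were higher and 1.28% lower), and DESeq2 also called 0. An unadjusted edgeR p under 0.05 was found for 25 of the 40. The share of all genes under that cut was not counted, so the 25 cannot be read as a trait of this list.

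Factor peaks were counted where they overlapped a member region of either table by at least 1 bp. The peaks are the authors' own calls, made per library against an input, and were described and not tested. LXR peaks in both Kupffer cell libraries lay at 19 of the 27 members (62.2% of 18476 genes had one), and in both BMDM libraries at 22 (53.1%). SMAD4 peaks lay at 15 members in Kupffer cell nuclei (55.9%) and 19 in BMDM (49.0%). RBPJ peaks lay at 9 members in Kupffer cell nuclei (27.8%) and at all 27 in BMDM (85.2%). The RBPJ Kupffer cell libraries had 1.01% and 0.76% of their tags in peaks and the BMDM libraries 25.1% and 24.5%, so the 2 RBPJ counts are not comparable as numbers of sites. The LXR cells differ in the agonist, which only the BMDM received.

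**Figure D5:**
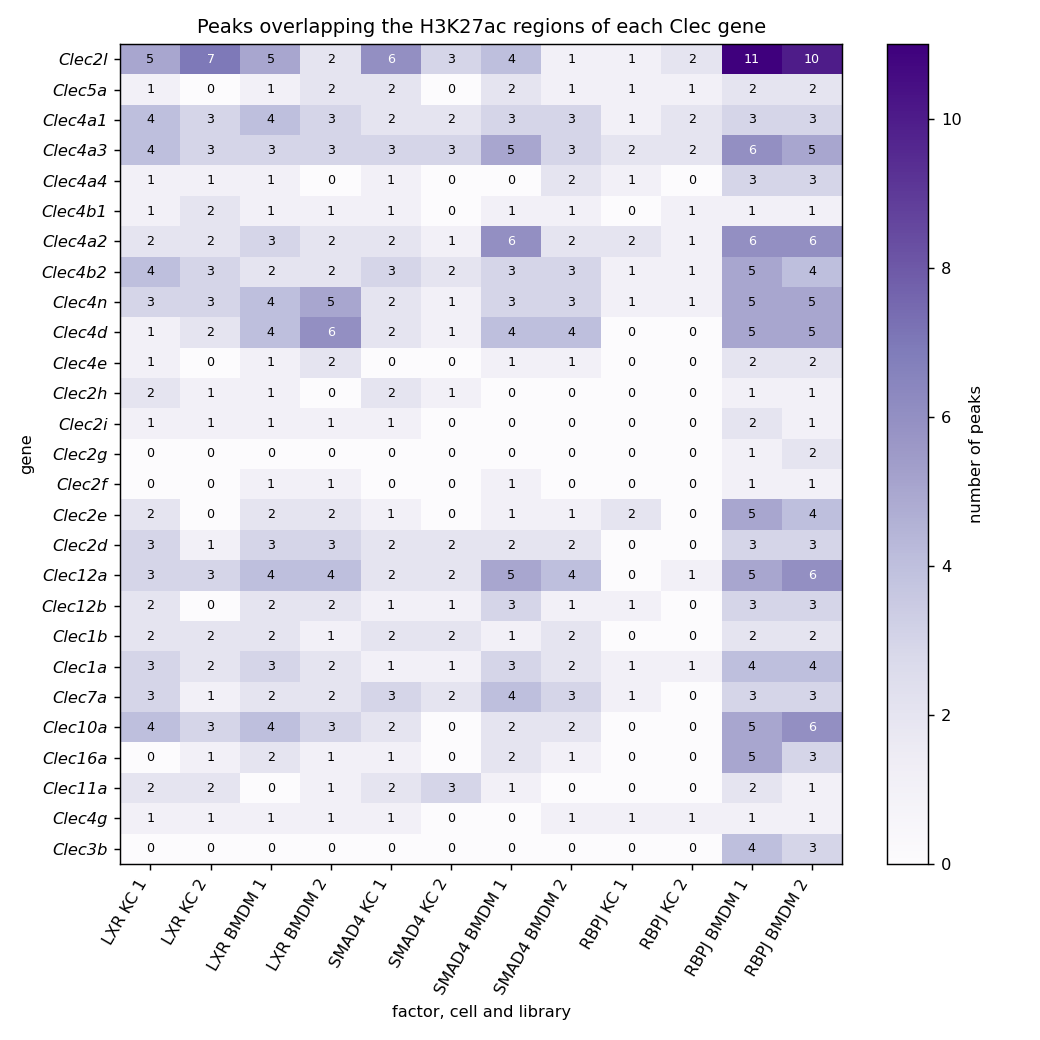
Number of LXR, SMAD4 and RBPJ peaks that overlap the H3K27ac regions of each Clec gene (rows, genome order) in each of the 12 libraries (columns, KC for Kupffer cells). Darker cells hold more peaks; every Clec gene has an RBPJ peak in both BMDM libraries, and Clec4e has none for SMAD4 or RBPJ in Kupffer cells.

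At Clec1b, the LXR peak before the start was the highest of the LXR peaks found at Clec genes in both Kupffer cell libraries, by mean fold over input. It was centred at -263 and -234 bp from the start in the 2 libraries (chr6:129396951-129397117 in the first), at 96.2 and 62.3-fold over input with 73.8 and 35.3 tags per 10 M, partly over the promoter stretch printed above. LXR peaks in both BMDM libraries overlapped it, at 24.1 and 9.39-fold and 18.0 and 29.9 tags per 10 M. The BMDM table lists no acetylated region there, but it is of 4-day cultures without GW3965, so acetylation in the LXR cultures is not known. A second LXR peak of both Kupffer cell libraries lay in the gene region that was called higher in RLM than in monocytes (chr6:129399934-129400100, 37.2 and 9.95-fold). SMAD4 peaks of both Kupffer cell libraries also overlapped that region, at 28.2 and 13.9-fold, and 1 of them had a further peak before the start (36.2-fold). No RBPJ peak of Kupffer cell nuclei overlapped a Clec1b region, while both BMDM libraries had 2.

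The Clec12a promoter carried peaks of all 3 factors. LXR peaks lay there in both Kupffer cell libraries (41.8 and 79.6-fold, chr6:129350076-129350242 in the first) and in both BMDM libraries (23.8 and 12.8-fold). SMAD4 peaks lay there in all 4 libraries, at 26.9 and 32.2-fold in Kupffer cell nuclei and 33.2 and 18.3-fold in BMDM, centred between -68 and 10 bp from the start. RBPJ peaks lay there in both BMDM libraries and in 1 Kupffer cell library. The LXR peaks of Kupffer cells were centred at -85 and -140 bp, and in the stretch printed above the TTGCNNAA match lies 140 to 133 bases before the start and the GAGGAA matches 61 to 42.

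The Clec2d promoter held LXR and SMAD4 peaks in all 8 libraries of these factors and RBPJ peaks in both BMDM libraries, over the stretch with the 3 half-sites. Its SMAD4 peak was at 40.1 and 399-fold in Kupffer cell nuclei (chr6:129180427-129180575 in the first), with 74.4 and 131 tags per 10 M, so the libraries were further apart in fold over input than in tags. At the Clec4e promoter, LXR, SMAD4 and RBPJ peaks lay in both BMDM libraries, at 7.90 and 4.29-fold, 13.8 and 12.1-fold and 15.1 and 15.3-fold. In Kupffer cells, where Clec4e had its lowest acetylation, the promoter had an LXR peak in 1 of 2 libraries and no SMAD4 or RBPJ peak.

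Other high peaks were spread over both clusters. For LXR, Clec4a3 (chr6:122952471-122952637, 99.0 and 12.5-fold) followed Clec1b and Clec12a in Kupffer cells, and Clec4n (chr6:123244291-123244441, 30.9 and 44.5-fold), Clec4a1 and Clec4g led in BMDM. The Clec4n peak lies in the intron region that was lower in both liver groups than in monocytes. LXR peaks of both Kupffer cell libraries overlapped this Clec4n peak, at 30.4 and 14.1-fold. For SMAD4, Clec4a1 (39.2 and 152-fold) and Clec7a (23.3 and 130-fold) followed Clec2d in Kupffer cell nuclei, and Clec12a and Clec1b led in BMDM. For RBPJ, Clec4g, Clec4a2 and Clec4a1 led in Kupffer cell nuclei, at 4.26 to 14.5-fold, and Clec4a1 (34.7 and 253-fold), Clec10a and Clec4n led in BMDM. Of the 33 LXR peak pairs found in both Kupffer cell libraries, 25 were met by peaks in both BMDM libraries and 2 by none. Of the 20 SMAD4 pairs of Kupffer cell nuclei, 14 were met in both BMDM libraries and 4 in none. The same shares over all peak pairs were not counted, so whether this overlap is usual for these libraries is not known.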

How the data were processed

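The members and all gene lists were chosen with earlier results of these data known. The authors deposited 2 tables of unnormalized tag counts over regions 2000 bp wide (6 blood and liver libraries; 4 BMDM libraries) and HOMER peak lists of 12 factor libraries. Per the file headers, peaks were called per library against 1 input at a false discovery rate of 0.001, with at least 4-fold enrichment against the input and against the surrounding 10000 bp and a Poisson p of 0.0001. Each deposited peak has a signal in tags per 10 M, the ratio of its tags to the input (fold) and the score given by findPeaks. For LXR in Kupffer cells, per the file headers, library 2 was set against an input whose name mentions a NASH diet, and 1 input served the second SMAD4 and the first RBPJ Kupffer cell library. Bowtie2, HOMER and the build mm10 appear, without versions, in the submitters' processing notes. The 12 inputs enter only through that ratio.

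Tags were summed per gene within 100 kb and tested with edgeR 4.0.16 in R 4.3.3 (quasi-likelihood, robust, TMM, filterByExpr, Benjamini-Hochberg over all genes or regions tested), 1 fit per table, checked on simulated data. All 26 and 27 members passed the filter, as did 90 of 92 and 102 of 112 regions. Neighbouring regions can overlap (22.8% and 22.3% of the Clec regions), so a tag can count more than once. CPM uses TMM-scaled totals of what was tested. Values in every library are given for the 16 called members with the largest differences, and for others where a sentence turns on them. Within each, the region named is the called one with the largest difference whose libraries do not overlap. Alternatives were DESeq2 1.42.0, library totals, no filter, the replicate block, each library left out, only the 2 groups compared, 20 kb, no distance limit, non-overlapping regions and, for peaks, 8-fold and 50% overlap. Some genes of the lists are not reported here by name.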

Additional observations from a re-analysis of the deposited data

How the results depend on the processing

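Depth (7.37 M tags in the shallowest library) limits genes such as Clec2f, Clec2g, Clec2h and Clec4g, where blood and liver libraries held 1 to 65 tags. Most counts of called members stayed within 1.5 times of the values given. Those that did not were the lower genes between RLM and monocytes (1 to 3 over the libraries left out, highest without the second RLM library and 2 without the second monocyte library), the lower genes with DLL4 (0 to 1, lowest without the second untreated library), the lower regions between RLM and monocytes (5 to 11, lowest without the second monocyte library) and with DLL4 (1 to 3, lowest without the first DLL4 library), and the members with SMAD4 peaks in Kupffer cells (15 to 23, highest without the second library). The lower genes between Kupffer cells and RLM numbered 5 with library totals, and the lower regions 19 with only the 2 groups compared. RBPJ peaks in Kupffer cells stood at 1 member when at least 8-fold was asked. The cause was not tested beyond what each construction shows. Over all genes, library totals moved the share of calls that were higher from 53.3% to 37.6% between Kupffer cells and RLM, from 56.1% to 40.4% between Kupffer cells and monocytes, and from 66.9% to 55.5% with DLL4.

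Directions reversed at Clec2l with regions within 20 kb (-1.74 and -1.65 for Kupffer cells against RLM and monocytes, 0.10 for RLM against monocytes) and, with library totals, at Clec2h (-0.11 against RLM). Differences near 0 that were not called changed sign over the libraries left out. From monocytes to RLM, Clec12b ranged from -0.09 to 0.33, Clec2l from -0.365 to 0.062 and Clec4a3 from -0.25 to 0.02. From RLM to Kupffer cells, Clec2h ranged from -0.31 to 0.48 and Clec2i from -0.24 to 0.13. Clec2h ranged from -0.035 to 0.76 from monocytes to Kupffer cells, and Clec11a from -0.184 to 0.009 with DLL4. The cause was not tested.

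Libraries of the same number shared only a number: the correlations of their deviations from the group means ranged from -0.04 to 0.06. With the replicate block, the gene counts were those given above in each comparison, such as 7 higher and 6 lower between Kupffer cells and monocytes, and region counts moved by at most 1, to 8 lower between RLM and monocytes.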

Other observations

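Other genes with a C-type lectin domain were read from a list of 57, of which 39 were tested in the blood and liver table and 32 in the BMDM table. In Kupffer cells against monocytes, 6 were called higher (18.4% of all genes) and 9 lower (14.4%), with a median log2 difference of -0.44 beside -0.08 over all genes. Mrc1, the mannose receptor of tissue macrophages, held 35.2 and 31.9 CPM in monocytes, 37.5 and 27.7 in RLM, and 213 and 265 in Kupffer cells (2.84 ± 0.18 against monocytes). Cd72, an ITIM receptor, held 11.9 and 12.1 CPM in monocytes, 26.9 and 39.5 in RLM, and 72.7 and 87.2 in Kupffer cells, and was called higher at both RLM (1.47 ± 0.21) and Kupffer cells (2.74 ± 0.21). Vcan, the matrix proteoglycan versican, fell from 130 and 148 CPM in monocytes to 22.4 and 18.4 in Kupffer cells (-2.78 ± 0.18).

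Between RLM and monocytes, 2 of these genes were higher (6.20% of all genes) and 5 lower (5.80%). Against RLM, 8 were higher in Kupffer cells (14.6%) and 6 lower (12.8%), among the latter Klrb1f (-2.19 ± 0.29), an NKR-P1 receptor gene in the cluster that holds the Clec2 genes. With DLL4, 1 was higher, Klri2 (1.19 ± 0.39; 2.60% of all genes), and 1 was lower (1.28%).

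Of the other marker lists, the summed level of 5 tested natural killer and T cell markers was 245 to 315 CPM in monocytes, 147 to 179 in RLM and 161 to 204 in Kupffer cells. That of 7 dendritic cell markers was 147 to 148 CPM, 81.1 to 91.4 and 207 to 218 in the same order. That of 3 hepatocyte markers was 15.8 to 17.1, 19.1 to 20.3 and 48.1 to 50.7, and that of 2 B cell markers was 21.1 to 25.4, 21.8 to 31.4 and 33.3 to 37.0. The sums hide members that differ: between Kupffer cells and monocytes, 3 dendritic cell markers were called higher and 3 lower (median log2 difference -0.52). In the same comparison, Ttr was the only hepatocyte marker called higher, Cd79b the only B cell marker called higher and Thy1 the only natural killer and T cell marker called lower.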
